A study of Saccharomyces cerevisiae with 24 samples.

Results

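The genes described here are 10 genes of G1 control in budding yeast (Saccharomyces cerevisiae): the cyclin genes CLN3, CLN2, PCL1, PCL2 and PCL9, the transcription factor genes SWI4, SWI6 and MBP1, and the inhibitor genes WHI5 and SIC1. They were found by systematic name and are 10 of 5843 rows in the haploid table and 10 of 5730 in the diploid table. All 10 were measured in all 24 libraries and passed the filter on low values.

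A yeast cell commits to division in late G1, at a step called Start. The cyclin Cln3 with the kinase Cdc28 relieves the repressor Whi5 from SBF, a complex of Swi4 and Swi6, and SBF then switches on CLN1, CLN2, PCL1 and PCL2 in a burst. MBF, made of Mbp1 and Swi6, switches on DNA synthesis genes in the same window. Cln2 with Cdc28 drives budding and marks Sic1, an inhibitor of the S phase kinase, for destruction, while Pcl1, Pcl2 and Pcl9 serve the kinase Pho85. These cyclins are known for their part in polarising actin towards the bud.

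Poly(A) RNA was sequenced from strains described by the submitters as expressing different actins, in log phase in YPD, a rich glucose medium, at 25 °C. There were 6 haploid strains, of which ScNI is the wild type and N2, Ca, Sc[At], Sc[Sp] and Sc[Ca] are altered, and 2 diploid strains, of which Sc/Sc is the wild type and N2/Ca is altered, with 3 libraries per strain. The labels do not say what the strain names stand for, what drives each actin gene, or whether the replicates are clones or cultures, so each p measures only the spread between these libraries. The diploid columns taken as N2/Ca are headed N19_Ca, a name no label explains. Values are DESeq2-normalised counts. Each ploidy has its own table with its own normalisation, and no level was tested across ploidy.

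The haploid libraries held 10228523 to 15403081 counted reads each, and the diploid libraries 12128284 to 15134814. Some libraries stood apart. Chromosomes VI and XIII were raised in all N2 libraries, in Ca replicates 1 and 2 and in N2/Ca replicate 1, and not in Ca replicate 3. Chromosome XI was raised in Ca replicate 1, at a median of log2 0.54, and in no other library. None of the 10 genes lies on these chromosomes. The median absolute log2 difference from the other libraries of the strain was 0.347 in Ca replicate 3 and 0.303 in Sc/Sc replicate 3, against 0.0576 to 0.234 for the rest. In replicate 2 of every haploid strain the summed MATalpha markers came to between 42261 and 92519 normalised counts, and the MATa markers to between 668 and 1382. The remaining 12 haploid libraries held the reverse, 687 to 1408 for MATalpha and 16978 to 28828 for MATa. Both sums were low in diploids, at 459 to 1009.6 (MATa) and 348 to 641 (MATalpha). The diploid sums cover 5 of the 7 MATa and 3 of the 4 MATalpha markers, and the haploid sums cover all of them. Results were therefore also computed without replicate 2 of each haploid strain and without Ca replicate 3.

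The promoters of CLN2, PCL1 and PCL2 are shown as examples that hold sequences SBF is known to bind. They were picked with the levels of the genes known. CLN3 and SWI6, which also differed in some strains, hold none of the sequences searched. The SBF box was searched as CACGAAA and as CGCGAAA, and the MBF box as ACGCGT, on both strands of the 800 bases before each start codon in the R64 genome. Of 5997 such promoters, 10.8% held CACGAAA, 7.20% held CGCGAAA, 7.62% held ACGCGT and 23.1% held any of them. CLN2 and PCL1 each held 3 boxes, and 35 promoters (0.584%) held 3 or more. PCL2 held 2, MBP1 and SIC1 each held 1, and CLN3, PCL9, SWI6 and WHI5 held 0. Below are 300 bases of 3 promoters, read in the direction of the gene, with the boxes in capitals. A match is a description of the letters and not a measured binding site.
CLN2 (R64, chrXVI:67034-67333, minus strand): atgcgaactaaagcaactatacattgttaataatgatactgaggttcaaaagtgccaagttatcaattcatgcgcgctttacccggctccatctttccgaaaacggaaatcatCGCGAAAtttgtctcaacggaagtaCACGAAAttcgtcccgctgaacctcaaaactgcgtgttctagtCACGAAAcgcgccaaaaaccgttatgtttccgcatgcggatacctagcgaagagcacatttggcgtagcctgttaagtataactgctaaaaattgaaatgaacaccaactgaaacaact
PCL1 (R64, chrXIV:87440-87739, plus strand): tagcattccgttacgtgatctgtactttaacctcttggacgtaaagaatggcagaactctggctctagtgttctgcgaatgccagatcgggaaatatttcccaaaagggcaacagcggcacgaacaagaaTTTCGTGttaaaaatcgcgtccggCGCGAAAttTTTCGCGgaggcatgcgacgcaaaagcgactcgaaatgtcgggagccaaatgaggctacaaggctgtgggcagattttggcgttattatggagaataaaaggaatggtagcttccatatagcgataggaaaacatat
PCL2 (R64, chrIV:234399-234698, plus strand): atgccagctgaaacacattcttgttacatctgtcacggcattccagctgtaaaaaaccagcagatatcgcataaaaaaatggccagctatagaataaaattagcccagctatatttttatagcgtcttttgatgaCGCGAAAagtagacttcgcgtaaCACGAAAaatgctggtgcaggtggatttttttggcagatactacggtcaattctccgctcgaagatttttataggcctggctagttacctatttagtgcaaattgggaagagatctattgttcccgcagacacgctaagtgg

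The CLN2 boxes all point the same way and lie between 606 and 532 bases before the start codon. The PCL1 boxes lie between 327 and 288 bases, and 2 of them read on the other strand (TTTCGTG and TTTCGCG). The boxes found before these genes did not overlap one another.

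Of the cyclin genes, PCL2 rose in 5 of the 6 altered strains, PCL1 and CLN3 in 4 each and CLN2 in 2, Sc[At] and Ca, while the inhibitor genes WHI5 and SIC1 did not pass the test in any comparison. A gene is said here to have risen or fallen only where limma's moderated test, adjusted over all genes of a table, gave p under 0.05. In Sc[At] 4 of 10 genes rose and 0 fell (15.3% of 5808 genes passed, 8.44% higher and 6.82% lower). In Ca 4 rose and 1 fell (30.2%, 16% higher and 14.2% lower), and in N2 3 rose and 0 fell (29.1%, 16.5% and 12.6%). In Sc[Sp] 3 rose and 1 fell (21%, 10.1% and 10.9%). In Sc[Ca] none of the 10 passed, by limma, edgeR or DESeq2, and 0 of 10 had an unadjusted p under 0.05 (0.0172% of genes passed). In the diploid N2/Ca 2 rose and 0 fell (14.4%, 8.59% and 5.76%).

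The median of the 10 fitted log2 folds was highest in Sc[At] (0.24) and N2/Ca (0.22), then came Sc[Sp] (0.15), Ca (0.14), N2 (0.11) and Sc[Ca] (0.01). Medians over all genes were −0.02 to 0.01. These 5 haploid comparisons share the ScNI libraries. An F test among the 6 haploid strains passed CLN2, CLN3, PCL1, PCL2 and SWI4, which is 5 of 10 where 60.6% of all genes passed. Since the libraries are of whole cultures, a larger share of cells in G1 and more RNA per cell cannot be told apart.

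**Figure D1:**
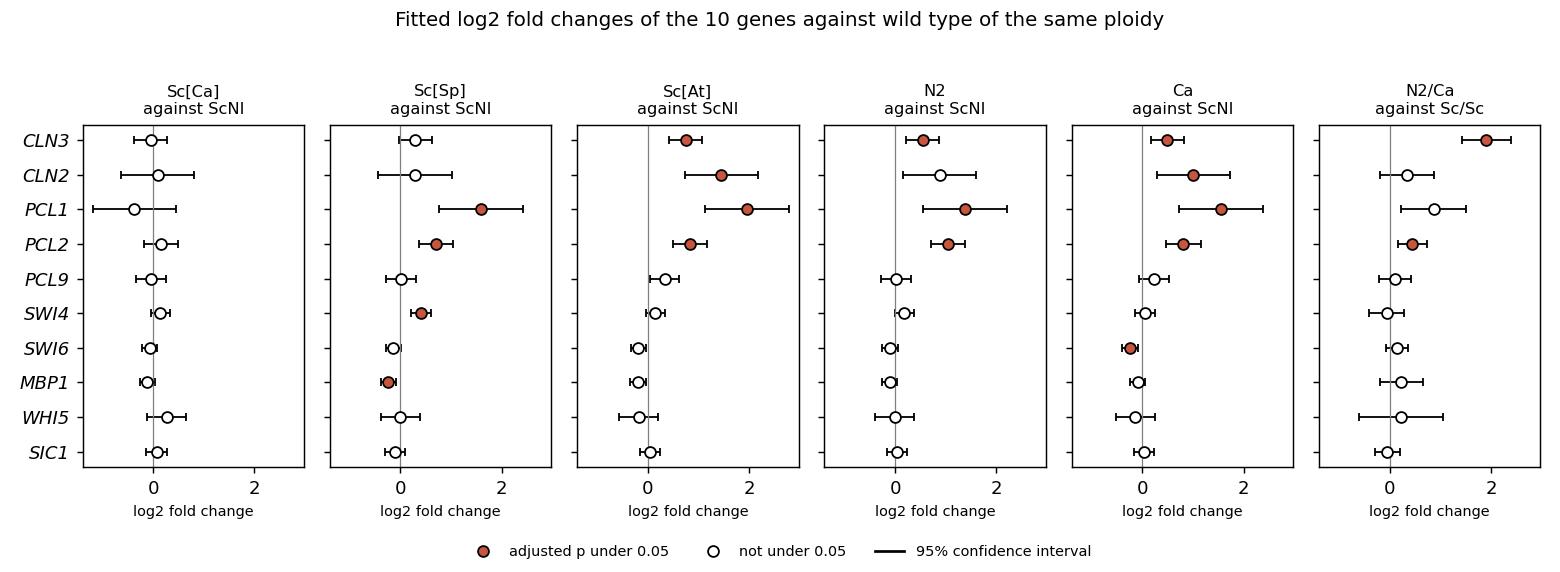
Fitted log2 fold changes (x axis, limma on log2(value + 1)) of the 10 genes in each strain against the wild type of its ploidy, with 95% confidence intervals. Filled points had an adjusted p under 0.05: they lie on CLN3, CLN2, PCL1 and PCL2 to the right of 0, with SWI4 to the right in Sc[Sp], MBP1 to the left in Sc[Sp] and SWI6 to the left in Ca.

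CLN3 (YAL040C, R64 chrI:65778-67520, minus strand), the cyclin that acts upstream of Start, stood at 1483, 1477 and 1398 normalised counts in ScNI replicates 1, 2 and 3. It was at 1507, 1392 and 1314 in Sc[Ca] and at 1662, 2105 and 1614 in Sc[Sp]. Those Sc[Ca] values lie around the wild type, and the Sc[Sp] values lie above it without passing the test (log2 0.29, SE 0.15, limma adjusted p = 0.18). In Sc[At] the libraries held 2797, 1965 and 2649, in N2 1684, 2533 and 2260, and in Ca 2048, 1890 and 2208. All 9 of these libraries lie above every wild-type library. CLN3 rose by log2 0.75 in Sc[At] (SE 0.15, limma adjusted p = 0.0068), 0.55 in N2 (0.15, 0.016) and 0.49 in Ca (0.15, 0.025), which is 1.68-, 1.47- and 1.41-fold. The means ran in the order Sc[At], N2, Ca, Sc[Sp], ScNI and Sc[Ca], and neighbours in that order overlapped except Sc[Sp] and ScNI.

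The CLN3 calls in N2 and Ca sat near the threshold. The call in N2 was lost without N2 replicate 2 (log2 0.43, limma adjusted p = 0.088), N2 replicate 3 (0.51, 0.067) or ScNI replicate 3 (0.52, 0.052). The call in Ca was lost without Ca replicate 1 (0.49, limma adjusted p = 0.064) or any ScNI library (0.47 to 0.51, 0.059 to 0.076).

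CLN2 (YPL256C, R64 chrXVI:64977-66614, minus strand), the G1 cyclin made in the burst at Start, stood at 1112, 951 and 1095 normalised counts in ScNI. It was at 1089, 1167 and 1091 in Sc[Ca], which overlaps the wild type, and at 1168, 1589 and 1144 in Sc[Sp], which lies above it by little (log2 0.29, SE 0.34, limma adjusted p = 0.57). Sc[At] held 2924, 3078 and 2665, which are close to each other and far above every ScNI and Sc[Sp] library. There CLN2 rose by log2 1.46 (SE 0.34, limma adjusted p = 0.013), or 2.74-fold with a 95% interval of log2 0.73 to 2.18. Without ScNI replicate 2 the adjusted p was 0.055 at log2 1.39 (limma).

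In N2 CLN2 stood at 1678, 2134 and 2024 normalised counts, above every wild-type library, with a log2 fold of 0.88 that missed the threshold (SE 0.34, limma adjusted p = 0.065). It passed there by DESeq2 (adjusted p = 0.040) and by limma when Ca replicate 3 was left out of the fit (adjusted p = 7.4e-05), a library that is in the pooled error of every haploid test. In Ca the libraries held 1391, 1366 and 4963, so that replicate 3 was more than the other two together. CLN2 rose by log2 1.01 in Ca (SE 0.34, limma adjusted p = 0.037), and by 0.39 without Ca replicate 3 (adjusted p = 0.028). With the 6 libraries of Ca and ScNI alone the adjusted p was 0.22 at log2 1.01 (limma), and without ScNI replicate 1, 2 or 3 in the full fit it was 0.073, 0.11 and 0.075.

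CLN1, the near relative of CLN2 on chromosome XIII and not among the 10 genes, rose in Sc[At], N2 and Ca. From 1605 ± 235 normalised counts in ScNI (mean ± SD, n = 3) its level went to 4093 ± 802 in N2, 3184 ± 243 in Ca, 2460.4 ± 281 in Sc[At] and 2070.4 ± 38.4 in Sc[Sp], with Sc[Ca] at 1777 ± 185. The log2 changes were 0.62 in Sc[At] (SE 0.14, limma adjusted p = 0.011), 1.34 in N2 (0.14, 3.5e-05) and 0.99 in Ca (0.14, 0.00033). The median gene of chromosome XIII was at log2 0.79 in N2 and 0.59 in Ca, and its part in the CLN1 values was not tested. In Ca replicate 3, where that chromosome was at −0.01, CLN1 stood at 2914 against 3252 and 3387 in Ca replicates 1 and 2, with ScNI at 1405 to 1863. Per kilobase of gene, CLN1 was above CLN2 in ScNI (978 ± 143 against 643 ± 54.2 normalised counts) and below it in Sc[At] (1499 ± 171 against 1764 ± 127). No stretch of 50 bases, the read length, of any of the 10 genes or of CLN1 occurs elsewhere in the R64 genome, and no annotated gene overlaps them.

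PCL1 (YNL289W, R64 chrXIV:87897-88736, plus strand), a Pho85 cyclin that works beside Cln1 and Cln2 at bud emergence, stood at 184, 177 and 166 normalised counts in ScNI and 164, 148 and 103 in Sc[Ca]. The Sc[Ca] libraries lay just below the wild type without passing the test (log2 −0.37, SE 0.39, limma adjusted p = 0.95). It was at 524, 557 and 509 in Sc[Sp], 639, 615 and 809 in Sc[At] and 419.7, 473 and 485 in N2. Each of these 9 libraries was above 2 times the highest wild-type library, and within a strain they were close. PCL1 rose by log2 1.59 in Sc[Sp] (SE 0.39, limma adjusted p = 0.013), 1.95 in Sc[At] (0.39, 0.0059) and 1.38 in N2 (0.39, 0.017), or 3.01-, 3.87- and 2.60-fold.

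In Ca PCL1 held 343, 299 and 1367 normalised counts, with replicate 3 far above the other two and all 3 above the wild type. It rose by log2 1.56 (SE 0.39, limma adjusted p = 0.0091), and by 0.86 without Ca replicate 3 (adjusted p = 0.00089). The 6 libraries of Ca and ScNI alone gave adjusted p = 0.11 at the same log2 1.56 (limma). Calls near the threshold were lost in Sc[Sp] without Sc[Sp] replicate 2 or ScNI replicate 3 (limma adjusted p = 0.050 and 0.051). They were lost in N2 without N2 replicate 2, N2 replicate 3 or ScNI replicate 3 (0.057, 0.061 and 0.051, limma adjusted p), with log2 values of 1.34 to 1.36.

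PCL2 (YDL127W, R64 chrIV:234927-235853, plus strand), another Pho85 cyclin of late G1, stood at 293, 240.1 and 242 normalised counts in ScNI and 316, 283 and 262 in Sc[Ca], which overlap. It was at 391, 516 and 366 in Sc[Sp], 445, 478 and 460.2 in Sc[At], 462, 583 and 564 in N2 and 368, 443 and 569 in Ca. All 12 of these libraries lie above every ScNI and Sc[Ca] library. PCL2 rose by log2 0.70 in Sc[Sp] (SE 0.16, limma adjusted p = 0.0087), 0.84 in Sc[At] (0.16, 0.0048), 1.05 in N2 (0.16, 0.00047) and 0.81 in Ca (0.16, 0.0027). It had the smallest adjusted p of the 10 genes in N2, Sc[At] and Ca, and its calls against ScNI were kept without any single library of the strains compared.

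PCL9 (YDL179W, R64 chrIV:138291-139205, plus strand), a Pho85 cyclin expressed earlier, at the end of mitosis and in early G1, was at 431, 417 and 431 normalised counts in ScNI. It held 502, 591 and 523 in Sc[At], above the wild type, with a log2 fold of 0.33 that did not pass (SE 0.14, limma adjusted p = 0.11). It passed when Ca replicate 3 was left out of the fit (adjusted p = 0.0070) and in the 6 libraries of Sc[At] and ScNI (0.037, limma). In Ca it held 471, 393 and 675, and in Sc[Ca], Sc[Sp] and N2 all 9 libraries lay between 406 and 450.04. These 3 strains overlapped the wild type.

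**Figure D2:**
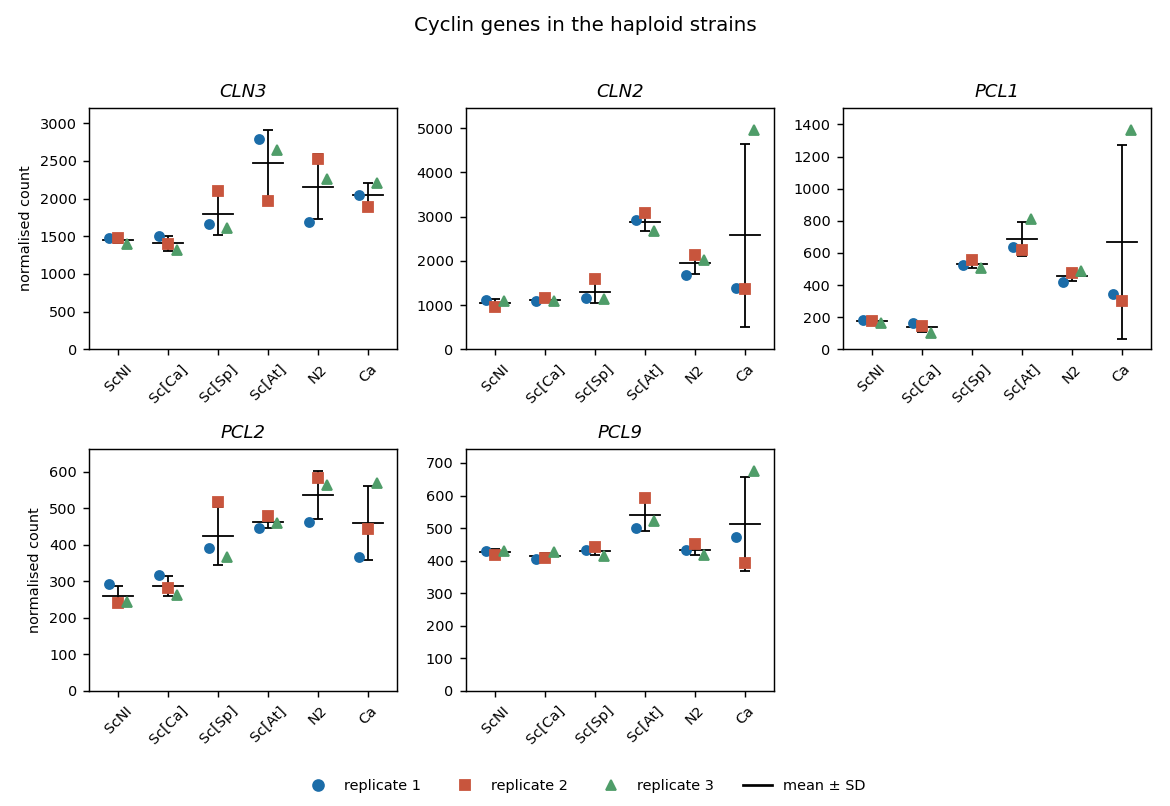
Normalised counts (y axis) of the 5 cyclin genes in the 18 haploid libraries by strain (x axis), with a marker per replicate and bars for the mean ± SD of 3 libraries. PCL1 and PCL2 of Sc[Sp], Sc[At], N2 and Ca lie above all ScNI points, and Ca replicate 3 stands alone at 4963 for CLN2 and 1367 for PCL1.

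Without replicate 2 of any haploid strain, the libraries with the MATalpha pattern, 12 libraries remained. Calls were lost, and some folds of the cyclin genes moved. CLN2 went from log2 0.29 to 0.07 in Sc[Sp] and from 1.01 to 1.25 in Ca, and PCL1 in Ca went from 1.56 to 1.96. PCL1 was then at log2 1.56, 2.03, 1.36 and 1.96 in Sc[Sp], Sc[At], N2 and Ca, with limma adjusted p of 0.17, 0.12, 0.18 and 0.063. PCL2 was at 0.50, 0.76, 0.94 and 0.78 (limma adjusted p = 0.22, 0.14, 0.065 and 0.065). In Sc[At] CLN2 was at 1.34 (limma adjusted p = 0.19), and CLN3 was the gene of the 10 that still passed there, with 0 of 10 in Sc[Sp], N2 and Ca. That setting left 58 genes of the table passing in Sc[Sp], 24 in Sc[At], 103 in N2 and 263 in Ca.

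SWI4 (YER111C, R64 chrV:382595-385876, minus strand), the DNA-binding subunit of SBF, stood at 659, 622 and 556 normalised counts in ScNI and 838, 769 and 816 in Sc[Sp]. All 3 Sc[Sp] libraries lay above the 15 other haploid libraries, which held 556 to 730.2. SWI4 rose by log2 0.40 in Sc[Sp] (SE 0.09, limma adjusted p = 0.0087), or 1.32-fold. In Sc[At], where CLN2 and PCL1 were highest among the strains by mean, SWI4 was at 669, 709 and 656 and did not pass (log2 0.15, SE 0.09, limma adjusted p = 0.28, 95% interval −0.04 to 0.34). The call in Sc[Sp] was lost without ScNI replicate 3 (log2 0.34, limma adjusted p = 0.053).

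SWI6 (YLR182W, R64 chrXII:517940-520351, plus strand), the subunit shared by SBF and MBF, stood at 1411, 1399 and 1442 normalised counts in ScNI. It was at 1207, 1317 and 1078 in Ca, 1289, 1249 and 1200.2 in Sc[At] and 1341, 1246 and 1274 in Sc[Sp]. All 15 libraries of the other haploid strains lay below the 3 wild-type libraries, the highest of them an N2 library at 1375.7. SWI6 fell by log2 0.24 in Ca (SE 0.07, limma adjusted p = 0.020). The log2 folds were −0.19 in Sc[At] (SE 0.07, limma adjusted p = 0.093), −0.14 in Sc[Sp] (0.17), −0.10 in N2 (0.34) and −0.07 in Sc[Ca] (0.95). The Ca call was lost in the 6 libraries of Ca and ScNI (adjusted p = 0.14) and without any of the ScNI libraries (0.051 to 0.066, limma).

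MBP1 (YDL056W, R64 chrIV:352877-355378, plus strand), the DNA-binding subunit of MBF, stood at 988, 1063 and 969 normalised counts in ScNI and 898, 831 and 831 in Sc[Sp]. It was at 883, 854 and 900.2 in Sc[At], and the libraries of both strains lay below the wild type. MBP1 fell by log2 0.24 in Sc[Sp] (SE 0.07, limma adjusted p = 0.028), and the fold in Sc[At] was −0.19 (SE 0.07, limma adjusted p = 0.077). The Sc[Sp] call was lost without Sc[Sp] replicate 2 or 3 or any ScNI library, at adjusted p of 0.060 to 0.11 (limma). The Sc[At] fold passed by edgeR (adjusted p = 0.045) and DESeq2 (0.032). Lying wholly to one side of the wild type is a weak mark in these libraries. It held for 7 of the 10 genes in Sc[Sp] (57.6% of all genes) and 7 in Sc[At] (42.5%), for 5 in N2 (50%) and 5 in Ca (40.7%), and for 3 in Sc[Ca] (36.6%).

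WHI5 (YOR083W, R64 chrXV:479533-480420, plus strand), the repressor of SBF, stood at 364, 262 and 349 normalised counts in ScNI. Ca replicate 3 was the lowest haploid library, at 209. Sc[Ca] held 385, 367 and 414, all above the 3 wild-type libraries, and the log2 fold of 0.27 did not pass (SE 0.18, limma adjusted p = 0.95). The folds of WHI5 in the other strains lay between −0.18 in Sc[At] and −0.01 in Sc[Sp] and N2 (limma adjusted p = 0.54, 0.98 and 0.97). With an SE of 0.18, a change of WHI5 in Sc[At] between log2 −0.57 and 0.20 was within the 95% interval.

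SIC1 (YLR079W, R64 chrXII:286820-287674, plus strand), the inhibitor that holds back S phase, stood at 1299, 1411 and 1458 normalised counts in ScNI, and the other 15 haploid libraries lay between 1241 and 1672. Every strain overlapped the wild type. Its log2 folds lay between −0.11 in Sc[Sp] and 0.07 in Sc[Ca]. None passed (limma adjusted p = 0.42 to 0.97), and the 95% intervals together ran from −0.31 to 0.27. Per kilobase SIC1 was the most abundant of the 10 genes in ScNI, at 1625 ± 95.6 normalised counts, followed by CLN3 at 833 ± 27.3 and CLN2 at 643 ± 54.2, with PCL1 at 209 ± 10.4 and SWI4 at 186 ± 15.9 lowest.

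**Figure D3:**
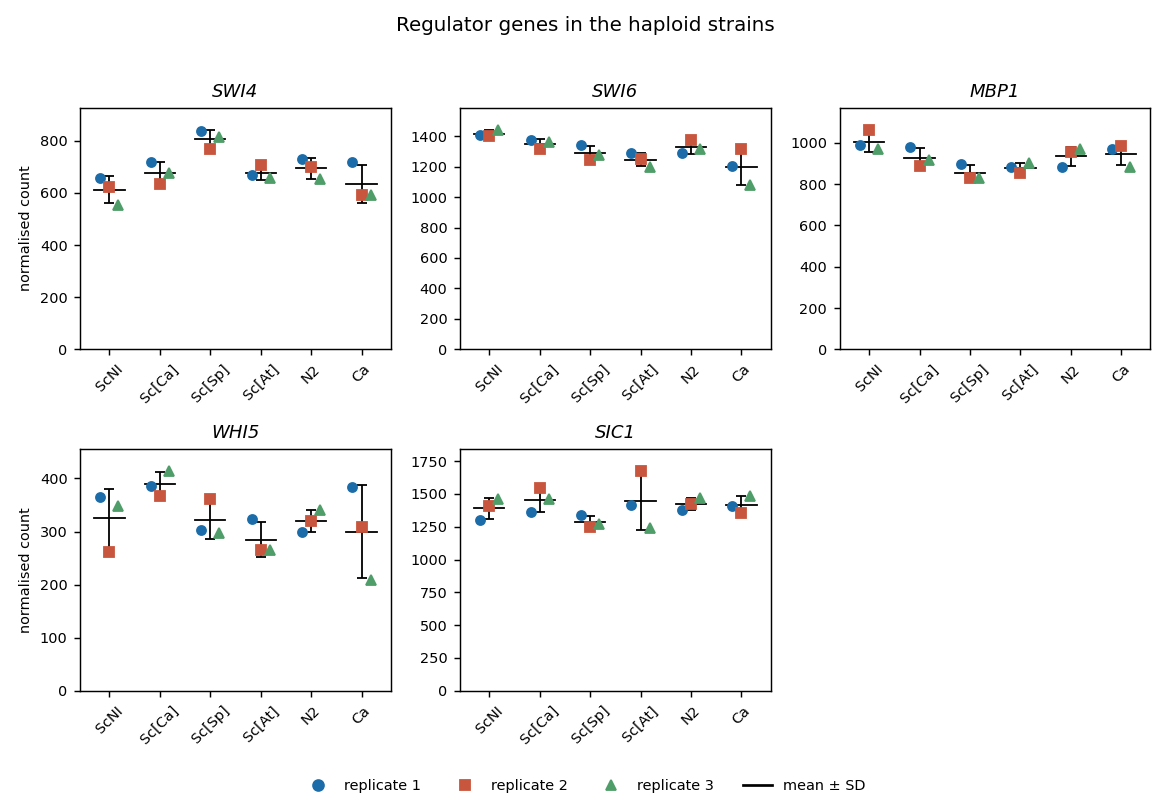
Normalised counts (y axis) of the 5 regulator genes in the 18 haploid libraries by strain (x axis), with a marker per replicate and bars for the mean ± SD of 3 libraries. SWI4 of Sc[Sp] lies above all other points at 769 to 838, SWI6 is highest in ScNI, and SIC1 overlaps in all strains.

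Direct contrasts between altered strains asked where their G1 genes differ. Between Sc[At] and Sc[Sp], CLN2 was 2.24-fold higher in Sc[At] (log2 1.17, SE 0.34, limma adjusted p = 0.037), the 1 gene of 10 that passed where 13.5% of genes did (8.21% higher). The libraries of the 2 strains did not overlap for 4 of the 10 genes and for 37.6% of all genes. PCL1 and PCL2 did not differ beyond their error, at log2 0.37 (95% interval −0.46 to 1.19) and 0.14 (−0.20 to 0.47). SWI4 was lower in Sc[At], at log2 −0.25 (limma adjusted p = 0.077), and CLN3 higher, at 0.46 (0.061). The CLN2 call was lost without any single library of either strain (limma adjusted p = 0.057 to 0.115, log2 1.08 to 1.32). With Ca replicate 3 out of the fit, CLN2, CLN3, PCL9 and SWI4 passed.

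Ca and Sc[Ca] carry similar labels and were set against each other in the same fit. PCL1 was higher in Ca by log2 1.93 (SE 0.39, limma adjusted p = 0.0017), CLN2 by 0.92 (0.34, 0.043), PCL2 by 0.66 (0.16, 0.0048) and CLN3 by 0.54 (0.15, 0.012), so that 4 of 10 genes rose and 0 fell where 39.7% of genes passed (20.6% higher). These 4 genes were also those without overlap, which 46.7% of all genes showed. Without Ca replicate 3 the log2 values were 1.23 for PCL1 (limma adjusted p = 5.3e-05), 0.31 for CLN2 (0.068), 0.50 for PCL2 (0.012) and 0.49 for CLN3 (0.025). CLN2 also lost the call without Sc[Ca] replicate 1, 2 or 3 (limma adjusted p = 0.095, 0.082 and 0.097).

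Between Ca and N2 none of the 10 genes passed by limma, edgeR or DESeq2, with 0 at an unadjusted p under 0.05, and 0.517% of all genes passed. The 2 strains overlapped for all 10 genes, and 11.3% of all genes did not overlap. The log2 differences were 0.13 for CLN2 (95% interval −0.60 to 0.85), 0.18 for PCL1 (−0.65 to 1.01), −0.06 for CLN3 (−0.38 to 0.27) and −0.24 for PCL2 (−0.58 to 0.10). Without Ca replicate 3 the values of CLN2 and PCL1 were −0.49 and −0.51 (limma adjusted p = 0.070 and 0.11), so their sign rests on that library.

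In the diploids CLN3 had the largest fold of the 10 genes. It stood at 761, 641 and 413 normalised counts in Sc/Sc and 2379, 2239.7 and 1991 in N2/Ca. The N2/Ca libraries are close to each other and above every Sc/Sc library, of which replicate 3 was lowest. CLN3 rose by log2 1.91 (SE 0.21, limma adjusted p = 0.0017), or 3.75-fold with a 95% interval of log2 1.42 to 2.39. Without Sc/Sc replicate 3 it was 1.65 (limma adjusted p = 0.00017), and leaving out each library in turn gave 1.65 to 2.09 with adjusted p of at most 0.011.

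PCL2 stood at 245, 267 and 237 normalised counts in Sc/Sc and 338, 346 and 340.3 in N2/Ca, with no overlap. It rose by log2 0.45 (SE 0.12, limma adjusted p = 0.044), and the call was lost without N2/Ca replicate 1, 2 or 3 (limma adjusted p = 0.11, 0.17 and 0.17) or Sc/Sc replicate 1 or 2 (0.080 and 0.062). PCL1 was at 218, 161 and 175 in Sc/Sc and 210.3, 459.7 and 389.8 in N2/Ca, where replicate 1 lay within the wild-type range. Its log2 fold was 0.87 (SE 0.28, limma adjusted p = 0.073), it passed by DESeq2 (adjusted p = 0.010), and without N2/Ca replicate 1 it was 1.20 (limma adjusted p = 0.017). N2/Ca replicate 1 is the library with raised chromosomes VI and XIII, and the part of this in the PCL1 value was not tested.

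CLN2 overlapped between the diploids, at 1248, 996 and 647 normalised counts in Sc/Sc and 1009, 1355 and 1212 in N2/Ca (log2 0.35, SE 0.23, limma adjusted p = 0.32). CLN1, in contrast, rose from 813 ± 240 to 2279 ± 406 (± SD, n = 3, log2 1.52, SE 0.23, limma adjusted p = 0.0053). It lies on chromosome XIII, which was raised in N2/Ca replicate 1 (median log2 0.46). CLN1 stood at 2748 in that library, against 2053 and 2036 in N2/Ca replicates 2 and 3. The part of the raised chromosome in the CLN1 value was not tested. Of the Sc/Sc libraries replicate 3 was lowest for CLN1, at 546. SWI4, WHI5, SIC1, MBP1 and PCL9 overlapped, and WHI5 and MBP1 in Sc/Sc replicate 3 were low, at 132 and 562 against 319 to 397 and 899 to 916 in the other two. CLN3, PCL2 and SWI6 were the 3 of 10 genes that did not overlap, as 43.6% of all genes did not. SWI6 lay higher in N2/Ca (1290, 1232 and 1193 against 1135, 1164 and 1060), opposite in side to the haploid strains, with a log2 fold of 0.15 that did not pass (SE 0.10, limma adjusted p = 0.33).

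**Figure D4:**
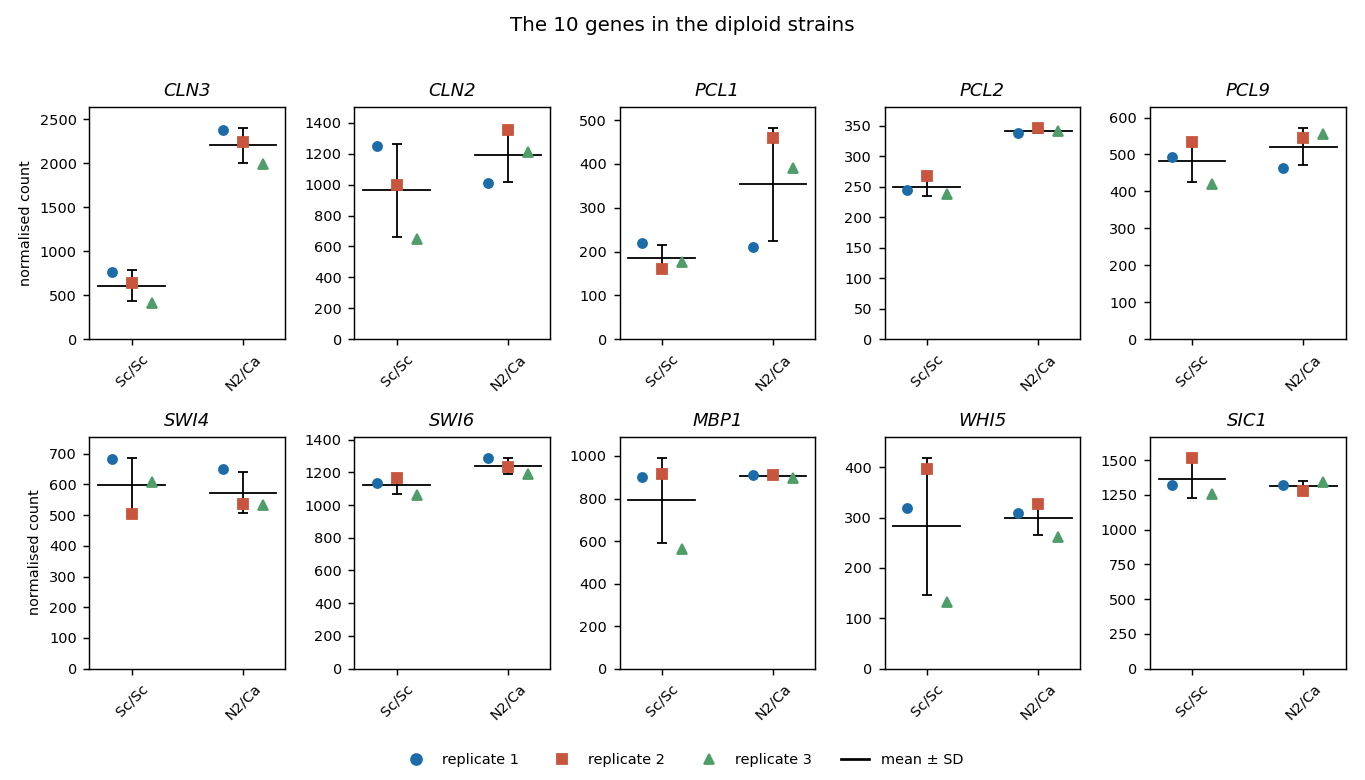
Normalised counts (y axis) of the 10 genes in the 6 diploid libraries by strain (x axis), with a marker per replicate and bars for the mean ± SD of 3 libraries. CLN3 goes from 413 to 761 in Sc/Sc to between 1991 and 2379 in N2/Ca, PCL2 does not overlap, and CLN2 does.

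Genes that SBF and MBF are known to control were described from lists of 20 genes each, beside the shares of all genes given above. Those shares belong to the fits of all libraries. Counts from fits that leave libraries out, here and below, cannot be read against them. Of the SBF targets 6 rose and 1 fell in Sc[Sp], 14 rose and 1 fell in Sc[At], 15 rose and 1 fell in N2, and 12 rose and 0 fell in Ca. Their median log2 folds were 0.41, 0.66, 0.67 and 0.62. CLN1 and 2 other SBF targets lie on chromosomes VI or XIII, and of the 17 elsewhere 5, 12, 12 and 9 rose in Sc[Sp], Sc[At], N2 and Ca. Without the third Ca library 13, 15, 16 and 11 of 20 rose and the median in Ca was 0.38, and without the libraries numbered 2 the counts were 0, 1, 2 and 3 at medians of 0.28, 0.70, 0.57 and 0.65. MNN1, a mannosyltransferase gene, went from 902 ± 44.5 normalised counts in ScNI to 1494 ± 107 in Sc[Sp], 1948 ± 104 in Sc[At], 2169 ± 428 in N2 and 2213 ± 87.7 in Ca (log2 0.73, 1.11, 1.25 and 1.29, limma adjusted p = 0.0010, 7.9e-05, 1.7e-05 and 1.5e-05). The target that fell in 3 strains was HO, the endonuclease of mating-type switching, at log2 −0.66 in Sc[Sp], −0.68 in Sc[At] and −0.86 in N2. HO is named here after its values were seen.

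Fewer MBF than SBF targets rose in Sc[Sp], Sc[At] and N2, and more rose in Ca. There were 3 of 20 higher in Sc[Sp], 8 in Sc[At], 10 in N2 and 16 in Ca, with 0 lower in each. Of all genes 10.1%, 8.44%, 16.5% and 16% were higher, and the count in Sc[Sp] is not far from that share. The medians of the MBF targets were log2 −0.06, 0.24, 0.32 and 0.49. No MBF target of the list lies on chromosome VI or XIII. Without the libraries numbered 2 the counts were 0, 0, 0 and 4, at medians of −0.11, 0.21, 0.22 and 0.57. POL30, which encodes the sliding clamp of DNA polymerase, went from 787 ± 25.4 normalised counts in ScNI to 1135 ± 82.6 in Sc[At], 1431 ± 295 in N2 and 1618 ± 83.7 in Ca (log2 0.53, 0.84 and 1.04, limma adjusted p = 0.0098, 0.00024 and 7.3e-05). In the direct contrast of Sc[At] with Sc[Sp], 9 of 20 MBF targets were higher in Sc[At] and 1 was lower, among them RNR1, a subunit of ribonucleotide reductase (log2 1.02, SE 0.17, limma adjusted p = 0.0052). Of the 20 SBF targets 2 were higher and 0 lower in that contrast. This is near the 8.21% of all genes that were higher there. With the third Ca library out of the fit, 8 SBF and 11 MBF targets were higher in Sc[At], and without the libraries numbered 2 the counts were 0 and 0.

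In the diploid N2/Ca 0 of the 20 MBF targets rose and 5 fell, with a median of log2 −0.30. The number lower was 10 without Sc/Sc replicate 3 and 1 without N2/Ca replicate 1, with medians of −0.32 and −0.28. CDC21, the thymidylate synthase gene, fell by log2 0.53 (SE 0.10, limma adjusted p = 0.015) and the cohesin gene MCD1 by 0.52 (0.12, 0.024). SBF targets had 5 higher and 1 lower there, with a median of 0.48, led by the mannosyltransferase gene OCH1 at 0.88 (SE 0.13, limma adjusted p = 0.0051). Of the 17 on other chromosomes than VI and XIII, 4 rose and 1 fell. Without Sc/Sc replicate 3 there were 7 higher and 3 lower of 20, and the median was 0.25.

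**Figure D5:**
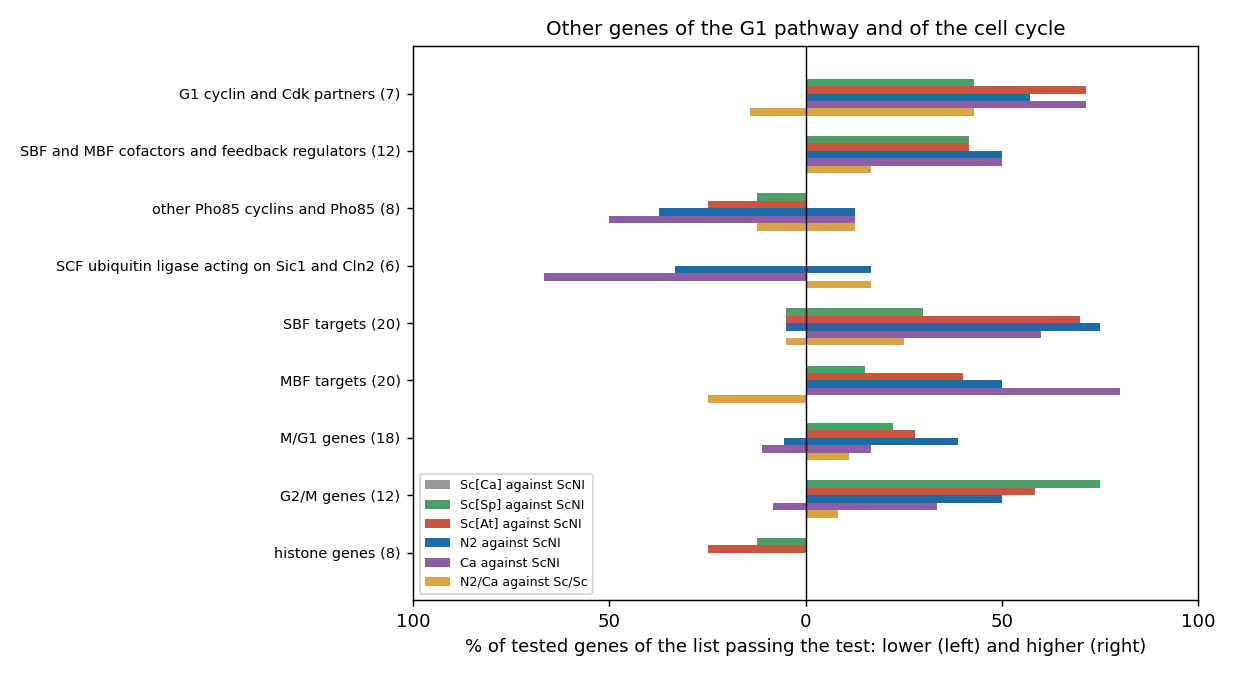
Share of the tested genes of each list (x axis, percent, number tested in brackets) that passed as lower (left) or higher (right) in each strain against the wild type of its ploidy (limma adjusted p under 0.05). SBF targets reach 15 of 20 higher in N2 and MBF targets 16 of 20 in Ca, and in N2/Ca 5 of 20 MBF targets lie on the lower side and 0 on the higher.

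Partners of the G1 cyclins were described too, and CLB5 and CLB6 among them are also on the list of MBF targets. Of 7 such genes 3 rose in Sc[Sp], 5 in Sc[At], 4 in N2 and 5 in Ca (10.1%, 8.44%, 16.5% and 16% of all genes), with 0 lower. CLN1, on chromosome XIII and also an SBF target, is one of them, and of the other 6 genes 3, 4, 3 and 4 rose. Without the libraries numbered 2 the counts were 0, 0, 1 and 1 of 7. FAR1, the inhibitor of Cln kinases in the pheromone response, rose by log2 0.77 in Sc[Sp], 0.88 in Sc[At] and 0.65 in N2 (SE 0.17 each, limma adjusted p = 0.0076, 0.0052 and 0.012). CDC28, the kinase itself, rose by log2 0.45 in N2 and 0.41 in Ca (SE 0.08, limma adjusted p = 0.0016 and 0.0030). In N2/Ca 3 of 7 rose and 1 fell (8.59% and 5.76% of all genes), with FAR1 at 1.20 (SE 0.21, limma adjusted p = 0.0089).

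On this list HCM1 and YOX1 are also SBF targets, NRM1 is an MBF target and RME1 is on the M/G1 list below. Of these 12 cofactors and feedback regulators of SBF and MBF, 5 rose in Sc[Sp] and Sc[At] (10.1% and 8.44% of all genes). In N2 and Ca 6 rose (16.5% and 16%), with 0 lower in any of these strains. Without the libraries numbered 2 these counts were 1, 0, 1 and 3, and without Ca replicate 3 there were 6 higher and 2 lower in Ca. XBP1, a repressor, rose by log2 1.47 in Sc[Sp], 1.30 in Sc[At], 1.48 in N2 and 0.80 in Ca (SE 0.17 each, limma adjusted p = 0.00012, 0.00050, 6.5e-05 and 0.0039). In N2/Ca 2 of 12 rose (8.59% of all genes), and the Whi5 relative SRL3 went from 185 ± 27.3 to 1316 ± 305 normalised counts (± SD, n = 3; log2 2.80, SE 0.20, limma adjusted p = 0.00019).

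Of the other Pho85 cyclins more fell than rose in Sc[At], N2 and Ca. Of 8 genes, PHO85 included, 0 rose and 1 fell in Sc[Sp], counts near the shares of all genes (10.1% and 10.9%). The counts were 0 and 2 in Sc[At] (8.44% and 6.82%), 1 and 3 in N2 (16.5% and 12.6%) and 1 and 4 in Ca (16% and 14.2%). In the diploid N2/Ca 1 was up and 1 down (8.59% and 5.76%). The gene that rose in N2 and Ca was CLG1, from 2597 ± 26.6 normalised counts in ScNI to 3897 ± 786 and 3444 ± 266 (± SD, n = 3; log2 0.56 and 0.40, SE 0.12, limma adjusted p = 0.0049 and 0.024). Without the libraries numbered 2, 1 of the 8 genes fell in Ca and 0 passed in Sc[Sp], Sc[At] and N2. With the third Ca library out of the fit, 1 rose and 1 fell in Sc[Sp], and 1 and 2 in Sc[At]. The counts were then 1 and 4 in N2, and 1 and 5 in Ca. PCL10, of the glycogen branch, fell by log2 0.32 in Sc[Sp], 0.40 in Sc[At], 0.60 in N2 and 0.60 in Ca (SE 0.09 each, limma adjusted p = 0.027, 0.013, 0.00055 and 0.00068). PCL6 fell by log2 0.58 in Sc[At], 0.57 in N2 and 0.81 in Ca (SE 0.12 each, limma adjusted p = 0.0068, 0.0034 and 0.00040).

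The SCF ubiquitin ligase that turns over Sic1 and Cln2 had 0 of 6 genes passing in Sc[Sp] and Sc[At] (21% and 15.3% of all genes). It had 1 higher and 2 lower in N2 (16.5% and 12.6%), 4 lower in Ca (14.2%) and 1 higher in N2/Ca (8.59%). The gene that was higher in N2 was CDC4, which lies on chromosome VI, one of those raised in every N2 library (log2 0.72, SE 0.24, limma adjusted p = 0.033). Without the libraries numbered 2, 0 of the 6 passed in any haploid strain against ScNI. CDC53, its scaffold, fell by log2 0.26 in N2 (SE 0.08, limma adjusted p = 0.028) and 0.38 in Ca (0.08, 0.0041).

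Genes of other cell cycle phases were described as well, and whether the share of cells in each phase differed was not measured. Of all genes 10.1%, 8.44%, 16.5% and 16% rose in Sc[Sp], Sc[At], N2 and Ca, and 8.59% rose in N2/Ca. The shares that fell were 10.9%, 6.82%, 12.6%, 14.2% and 5.76%. The counts below of M/G1 genes in Ca and N2/Ca, G2/M genes in N2/Ca and histone genes in Sc[Sp] lie near these shares. Of 12 G2/M genes 9 rose in Sc[Sp], 7 in Sc[At], 6 in N2 and 4 in Ca, with 1 lower in Ca, and 1 rose in N2/Ca. Without Ca replicate 3 there were 3 higher and 2 lower in Ca, with the median at log2 −0.05 in place of 0.06. The mitotic cyclin gene CLB2 rose by log2 0.59 in Sc[Sp], 0.57 in N2 and 0.44 in Ca (SE 0.09 each, limma adjusted p = 0.00093, 0.00074 and 0.0038). Of 18 M/G1 genes 4 rose in Sc[Sp], 5 in Sc[At], 7 in N2 with 1 lower, 3 in Ca with 2 lower, and 2 in N2/Ca. With the third Ca library out of the fit, 8 of them rose and 1 fell in Sc[Sp], and 4 rose and 4 fell in Ca. Of 8 histone genes, transcribed in S phase, 1 fell in Sc[Sp] and 2 in Sc[At], and 0 passed in N2, Ca and N2/Ca. With the third Ca library out of the fit, 7 of the 8 fell in Sc[Sp] and 7 in Sc[At], at the same medians of log2 −0.35 and −0.37. Without the libraries numbered 2, 0 genes of the G2/M, M/G1 and histone lists passed in Sc[Sp], Sc[At], N2 or Ca. In Sc[Ca] 0 genes of any of these 9 lists passed.

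The genes whose levels followed 3 of the cyclin genes most closely over the 18 haploid libraries were as follows. For CLN2 they were SVS1 (Pearson r = 0.964), TOS6 (0.964) and CIS3 (0.935). For PCL1 they were CHS3, the chitin synthase (0.978), EXG1, an exoglucanase (0.978), and the uncharacterised YPR078C (0.958), and for CLN3 they were FKS1, a glucan synthase (0.946), CCW14 (0.911) and TIR4 (0.911). The search covered 5393 genes with a mean of at least 100 normalised counts, and these r describe libraries that share strains and include Ca replicate 3. Among the 10 genes, the highest r were those of CLN2 with PCL9 (0.874), PCL1 with PCL2 (0.851) and CLN3 with PCL2 (0.828), while SIC1 lay between −0.36 and 0.34 with each of the others.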

How the data were processed

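The deposited values are signal, DESeq2-normalised counts that the authors gave in 1 table per ploidy. The submitters' processing notes name HISAT2 2.2.1 and build R64, Trimmomatic 0.39, DESeq2 1.28.0, FastQC 0.11.9 and bcl2fastq 2.20.0.422. Per the labels' protocols, libraries were stranded poly(A) libraries from 500 ng of total RNA. The sources used here do not state how reads were assigned to genes or whether strand was used.

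All values were whole multiples of a step per library (100% within 0.001 reads), so read counts could be recovered, and 0 columns were left unused. Locus tags placed 5758 haploid and 5654 diploid genes on R64, and symbols a further 77 and 72. Entries for introduced actins were not tested, and some promoter results are not reported here.

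Genes with a mean of at least 10 were tested with limma 3.58.1 (R 4.3.3) with a trend on log2(value + 1): 5808 in 1 fit of the 18 haploid libraries and 5727 in 1 fit of the 6 diploid libraries. Adjusted p are Benjamini-Hochberg values over all genes tested, with a threshold of 0.05, in 9 comparisons and an F test. Folds on this scale understate changes of low genes. SE denotes the standard error of a log2 fold as fitted. The test was tried on simulated data with 100 genes changed at each fold and 1 fixed spread for all genes. For Sc[At] against ScNI it recovered 52% of 1.5-fold and 100% of 2-fold changes, with 5 false calls. For N2/Ca against Sc/Sc it recovered 66% and 99%, with 9 false calls. Real genes with a larger spread are not covered by these shares.

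The 10 genes and all lists were chosen with earlier results of these data known. Named list genes are up to 3 per list and comparison with the smallest adjusted p among those passing. Likeness was the Pearson r of log2(value + 1) over 18 libraries. Alternatives were pseudocounts of 0.5 and 5, filters, TMM scaling, edgeR 4.0.16 and DESeq2 1.42.0 on recovered reads, a replicate block and smaller sets of libraries.

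Replicate numbers were taken to pair libraries where the lowest correlation of same-numbered deviations from the strain means was over 0.1: Sc[Ca] (0.50), Sc[Sp] (0.39), Sc[At] (0.40) and N2 (0.31) against ScNI, and Sc[At] against Sc[Sp] (0.32). The labels do not say what the numbers mark, and the mating-type pattern follows them. In Ca against ScNI (0.06), N2 (−0.31) and Sc[Ca] (0.08) and in N2/Ca (−0.07) they did not. The main fits held no term for replicate number in any comparison, and the replicate block was run only as an alternative.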

Additional observations from a re-analysis of the deposited data

Results flagged for a closer look

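A direct test set apart the effects of 2 strains against the same wild type in 5 cases. For CLN2 the effect in Sc[At] exceeded that in Sc[Sp] by log2 1.17 (limma adjusted p = 0.037), with all 3 Sc[At] libraries above all 3 Sc[Sp] libraries. Of all genes 13.5% passed in that contrast and 37.6% did not overlap. The CLN2 call was lost without any single library of either strain (limma adjusted p = 0.057 to 0.115). The effect in Ca exceeded that in Sc[Ca] by log2 1.93 for PCL1 (limma adjusted p = 0.0017), 0.92 for CLN2 (0.043), 0.66 for PCL2 (0.0048) and 0.54 for CLN3 (0.012), with no overlap of the 2 strains for any of the 4 genes. Without Ca replicate 3 these were 1.23, 0.31, 0.50 and 0.49, and CLN2 no longer passed (limma adjusted p = 0.068). Between Ca and Sc[Ca] 39.7% of all genes passed and 46.7% did not overlap.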

How the results depend on the processing

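Across pseudocounts, filters, TMM scaling, edgeR, DESeq2, the replicate block and smaller fits, 27 values of the 10 genes gained a call and 6 lost it. The other 897 stayed on the same side of the threshold, values that never passed included. Leaving out a library at a time, 6 gained a call, 40 lost it and 494 stayed. In the settings chosen after seeing the data, 9 gained a call, 22 lost it and 149 stayed. None changed direction past the threshold. The replicate block changed the count of genes passing among the 10 in N2/Ca alone, where it was 1 and PCL2 missed (limma adjusted p = 0.082), and changed no other count. Without N2 and Ca libraries 7 of the 10 passed in Sc[At], 4 in Sc[At] against Sc[Sp] and 8 in an F test of 4 strains. Less the third Ca library, a setting chosen after seeing the data, the counts were 7 and 4 in those comparisons. The shares of all genes passing in these fits are not given here, so these counts cannot be read against them. DESeq2 gave 3 for Sc[At] against Sc[Sp]. With 6 libraries alone 2 passed in Ca and 2 in Ca against Sc[Ca]. Without replicate 2 of any haploid strain, also chosen after seeing the data, 0 passed in Sc[Sp], N2, Ca and Sc[At] against Sc[Sp], 1 in Sc[At], 2 in Ca against Sc[Ca] and 2 in the F test. The cause was not tested, and these fits have 12 libraries in place of 18. Leaving out a library at a time gave 0 to 0 in Sc[Ca] and in Ca against N2, 1 to 4 in Sc[Sp], 3 to 4 in Sc[At], 1 to 3 in N2, 2 to 6 in Ca, 3 to 6 in Ca against Sc[Ca], 0 to 1 in Sc[At] against Sc[Sp] and 1 to 2 in N2/Ca. With 3 libraries a group, the SE of CLN2 (0.34) and PCL1 (0.39) limits what could be detected.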
